A study of Mus musculus and other sequences with 2 samples.

Results

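The miRNAs of the imprinted Dlk1-Dio3 locus on mouse chromosome 12 were examined in media conditioned by blastocysts and in blank media. Members were taken by name, as every mouse assay without a minor-arm mark (#) whose number belongs to 48 numbers assigned to the locus. The rule used no measured value, and it found 72 of the 750 miRNA assays. Card A held 47 of them and card B the other 25. No assay was found for miR-341, so that 47 of the 48 numbers were represented. The 72 assays carried 65 different names and belonged to 49 hairpins, all of which lay between Dlk1 and Dio3 in the RefSeq annotation of GRCm38.p6.

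Conditioned media came from 25 CD1 embryos, labelled as blastocysts but placed as compacted or cavitating morulae per the study's methods, kept together in 1 microdroplet of 8 μL from 99 to 116 h post-hCG, and blank media from a microdroplet without embryos held for the same 17 h. The zygotes had been collected from superovulated females labelled as 3 wk old and mated with CD1 males, and both microdroplets held KSOM without BSA, with 0.1% of what the labels spell as polyvinylacetate. From the conditioned microdroplet, 6 μL was lysed without RNA extraction, and either lysate was run once on a TaqMan rodent array of 2 cards (A and B), a set of RT-qPCR assays in 768 wells of which 18 were controls. With 1 sample per medium there was no replicate of either, and no test between the media was possible. Media pooled from 25 embryos hold whatever all their cells released, so that release by fewer cells and release of less RNA per cell cannot be told apart.

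Genes of the Dlk1-Dio3 locus are expressed according to the parent a chromosome came from. Dlk1, Rtl1 and Dio3 code for proteins and are expressed from the paternal chromosome, whereas the noncoding transcripts Meg3, Rian and Mirg, a transcript antisense to Rtl1, and the miRNAs they carry are expressed from the maternal one. The miRNAs are best known in brain and placenta, and those antisense to Rtl1, such as miR-127 and miR-136, are fully complementary to the Rtl1 mRNA and direct its cleavage.

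Each well gave a Ct, the cycle number at which its fluorescence passed a threshold. The scale is log2 and inverted, so that more template gives a lower Ct. A miRNA was called detected where its Ct was below 35, and wells without a Ct were counted as above that limit. Differences were obtained by subtracting the blank Ct from the conditioned Ct, without normalization, so that a negative one means an earlier crossing with embryos.

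The mature sequences behind the results below were taken from RefSeq on GRCm38.p6, where all of them lie on the plus strand, and are given 5′ to 3′ with the seed, bases 2 to 8, in capitals. A sequence was matched for 64 of the 72 assays. For 23 of these the assay name gives the arm, and for the other 41 the arm was taken from miRNA nomenclature, since the target sequences of the assays were not used here. The first 5 sequences are the 4 members that were detected with embryos and not in the blank microdroplet, with the opposite arm of the miR-136 hairpin.
miR-136-5p, chr12:109595331-109595352: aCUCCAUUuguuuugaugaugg
miR-136-3p, chr12:109595366-109595387: aUCAUCGUcucaaaugagucuu
miR-337-5p, chr12:109585818-109585839: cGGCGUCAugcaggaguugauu
miR-494-3p, chr12:109715367-109715388: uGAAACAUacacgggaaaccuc
miR-1188-5p, chr12:109611841-109611861: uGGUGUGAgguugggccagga

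The next 3 are members of the Rtl1 stretch that had a Ct between 28 and 35 in both media, and they are shown as signal that both microdroplets gave.
miR-431-5p, chr12:109590459-109590479: uGUCUUGCaggccgucaugca
miR-127-3p, chr12:109592888-109592909: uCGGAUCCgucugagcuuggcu
miR-434-3p, chr12:109594565-109594586: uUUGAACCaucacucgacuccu

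The last 8 belong, like miR-1188, to assays whose wells crossed the threshold before cycle 12 in at least 1 medium, and they are shown because such early wells weigh on most of the members' counts.
miR-770-3p, chr12:109563744-109563765: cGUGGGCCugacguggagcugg
miR-673-5p, chr12:109572004-109572025: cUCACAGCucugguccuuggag
miR-665-3p, chr12:109586368-109586387: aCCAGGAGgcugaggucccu
miR-667-3p, chr12:109720061-109720083: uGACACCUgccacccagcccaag
miR-381-3p, chr12:109726870-109726891: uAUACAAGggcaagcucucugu
miR-485-3p, chr12:109734946-109734967: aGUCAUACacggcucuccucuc
miR-377-3p, chr12:109740553-109740574: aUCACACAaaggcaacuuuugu
miR-409-3p, chr12:109743204-109743225: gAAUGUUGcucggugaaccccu

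The 64 assays with a sequence held 58 distinct mature sequences, and 0 seeds were shared by more than 1 of them. The members with a sequence therefore form a group by position and imprinting and not by seed, and the seeds of the others were not compared.

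Few of the cluster's miRNAs were detected, and which medium held more of them turned with the reading of wells that crossed very early, described further on: 15 against 18 with those wells counted, 9 against 7 without them. In conditioned media 15 of the 72 members had a Ct below 35, or 20.8%, beside 37.3% of all 750 miRNA assays. In blank media it was 18 members, or 25.0%, beside 29.1% of all assays. Members detected in both media numbered 11 (23.5% of all assays), those in conditioned media alone numbered 4 (13.9% of all assays), and those in blank media alone numbered 7 (5.6% of all assays). Among the members, 7 assays were thus detected in blank media alone and 4 in conditioned media alone, while among the other 678 assays the 2 counts were 35 and 100. Without the very early wells the members' counts turned to 3 and 5. These shares describe 1 microdroplet of each medium, and whether they differ between the cluster and other miRNAs was not tested. For 50 of the 72 members no Ct below 35 was obtained in either medium, beside 57.1% of all assays.

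**Figure D1:**
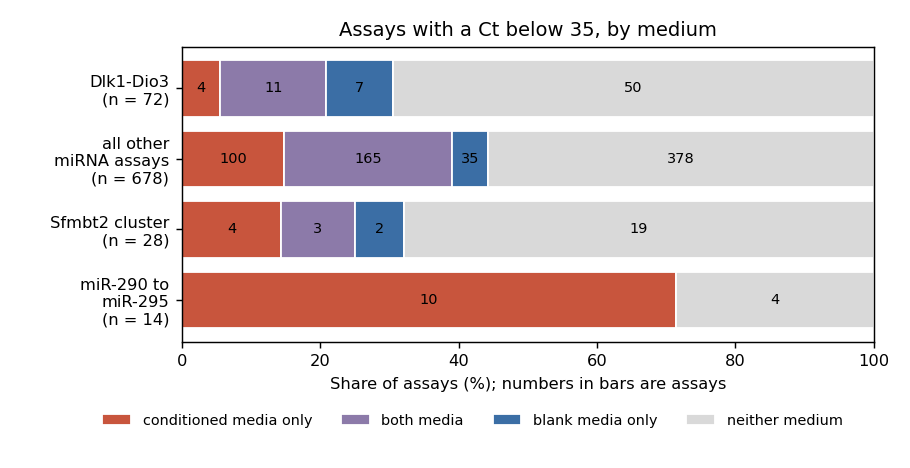
Share of assays (%) that were detected (Ct below 35) in conditioned media only, in both media, in blank media only or in neither, for the 72 Dlk1-Dio3 assays, the 678 other miRNA assays, the Sfmbt2 cluster and miR-290 to miR-295; numbers in the bars are assays, and each medium is 1 sample. The Dlk1-Dio3 bar holds 4 assays of conditioned media only beside 7 of blank media only. That of miR-290 to miR-295, mouse assays without #, holds 10 and 0.

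A pair of other miRNA clusters gives the scale. The miR-290 to miR-295 cluster is abundant in the inner cell mass and in embryonic stem cells. Of its 14 mouse assays without #, 10 were detected in conditioned media and 0 in blank media. Its rat-named assays, given further on, were not counted here. On card A its miR-292-3p crossed at 19.6, its miR-295 at 19.7 and its miR-294 at 24.1. Of these 3 assays only miR-294 gave a Ct in blank media, of 37.6. The Sfmbt2 cluster, also imprinted and known in placenta, had 28 assays, of which 7 were detected in conditioned media, 5 in blank media and 3 in both. The Dlk1-Dio3 members thus stood nearer to the Sfmbt2 assays than to miR-290 to miR-295 in the share detected in conditioned media, without a test of either difference.

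The members detected in conditioned media alone were miR-136, miR-337-5p, miR-494 and miR-1188. These calls rest on Ct alone, without the study's further filter on the fluorescence change. The miR-136 assay of card B crossed at cycle 27.1 with embryos and gave no Ct without them. The second miR-136 assay, on card A, was undetermined in both. The miR-136 signal was therefore seen on 1 card and not on the other. The miR-337-5p assay crossed at 32.4 with embryos and gave no Ct without them. The miR-494 assay of card A likewise crossed at 32.5 in the conditioned microdroplet alone, and the miR-494 assay of card B was undetermined in both. These 2 values lie within 3 cycles of the detection limit. The miR-1188 assay crossed at 8.83 in conditioned media and at 35.2 in blank media. Its place in this class therefore rests on a blank Ct just past the limit. It rests also on a well that is earlier than every mouse assay of miR-290 to miR-295.

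Close to miR-136 in gene order, and like it antisense to Rtl1, lie miR-431, miR-127 and miR-434, and each of these had 1 assay with a late Ct in both media. The miR-127 assay crossed at 28.96 with embryos and 28.94 without, a difference of 0.02 cycles. The Ct of miR-431 was 30.9 and 29.3, later in conditioned media by 1.59 cycles. The Ct of miR-434-3p was 31.1 and 33.2, a difference of -2.15 cycles. None of these 3 differences passed the SD of 3.22 cycles over the 4 wells of U6, a small nuclear RNA used as control, on card A in blank media. That SD rests on 1 well at 20.2 beside 3 between 26.3 and 27.1. Without this well it is 0.49, and that of conditioned media is 0.68, which the differences of miR-431 and miR-434-3p pass and that of miR-127 does not. These SDs describe repeated wells of 1 lysate per medium. The U6 wells of card A crossed from 19.9 to 27.1, earlier than these 3 members. Whether miR-431 and miR-434-3p differ between the media was not tested. The other arms, miR-127-5p and miR-434-5p, were undetermined in both media, as were both miR-433 assays.

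Among the miRNAs of the Mirg stretch, taken here as every member past the end of Rian, 7 were detected in both media. The miR-758 assay of card A crossed at 24.3 with embryos and 22.4 without, while its assay on card B was undetermined in both. The Ct of miR-544 was 17.9 and 17.4, that of miR-410 was 19.5 and 19.2, and that of miR-667 was 6.41 and 4.37. In these 4 the media lay within 2.04 cycles of each other, with the blank microdroplet first. The miR-409-3p assay crossed at 7.82 with embryos and 11.1 without, a difference of -3.33 cycles. The miR-377 assay crossed at 25.2 in conditioned media and at 8.29 in blank media, 16.9 cycles later with embryos. The miR-381 assay crossed at 27.2 and 10.6, 16.6 cycles later. These are the 2 members of 11 that came more than 5 cycles later in conditioned media, beside 11.4% of the 176 assays detected in both media. The 1 member that came more than 5 cycles earlier, beside 10.8% of those 176 assays, was miR-673, at 4.46 with embryos and 9.92 without, a difference of -5.47.

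Over the 11 members detected in both media, the median difference was 0.53 cycles, beside 0.05 cycles over the 176 assays, and 3 members came earlier in conditioned media and 8 later. Among the 176 assays these counts were 85 and 91. For 8 of the 11 members the difference was no larger than the range of the U6 wells of the same card in the more variable medium, which was 6.95 cycles for card A and 1.82 for card B. The same held for 121 of the 176 assays. Without the outlying blank well the card A range is 1.42 cycles, and 3 of the 11 members (miR-127, miR-544 and miR-410) and 71 of the 176 assays stayed within the ranges. The U6 wells are repeats of 1 lysate per medium, so that these ranges describe wells and not microdroplets. U6 itself crossed earlier in conditioned media, with a difference of -4.08 cycles in the mean of 4 wells on card A and of -7.07 cycles on card B, while the median miRNA assay detected in both media moved by -0.12 and 0.25 cycles. Taking differences relative to U6 moves every assay of a card later by the same amount. The median of the 11 members was then 4.61 cycles later in conditioned media and that of the 176 assays 5.65 cycles later. By the same measure 5 members came more than 5 cycles later, beside 55.1% of the 176 assays, and 0 came more than 5 cycles earlier, beside 1.7%.

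**Figure D2:**
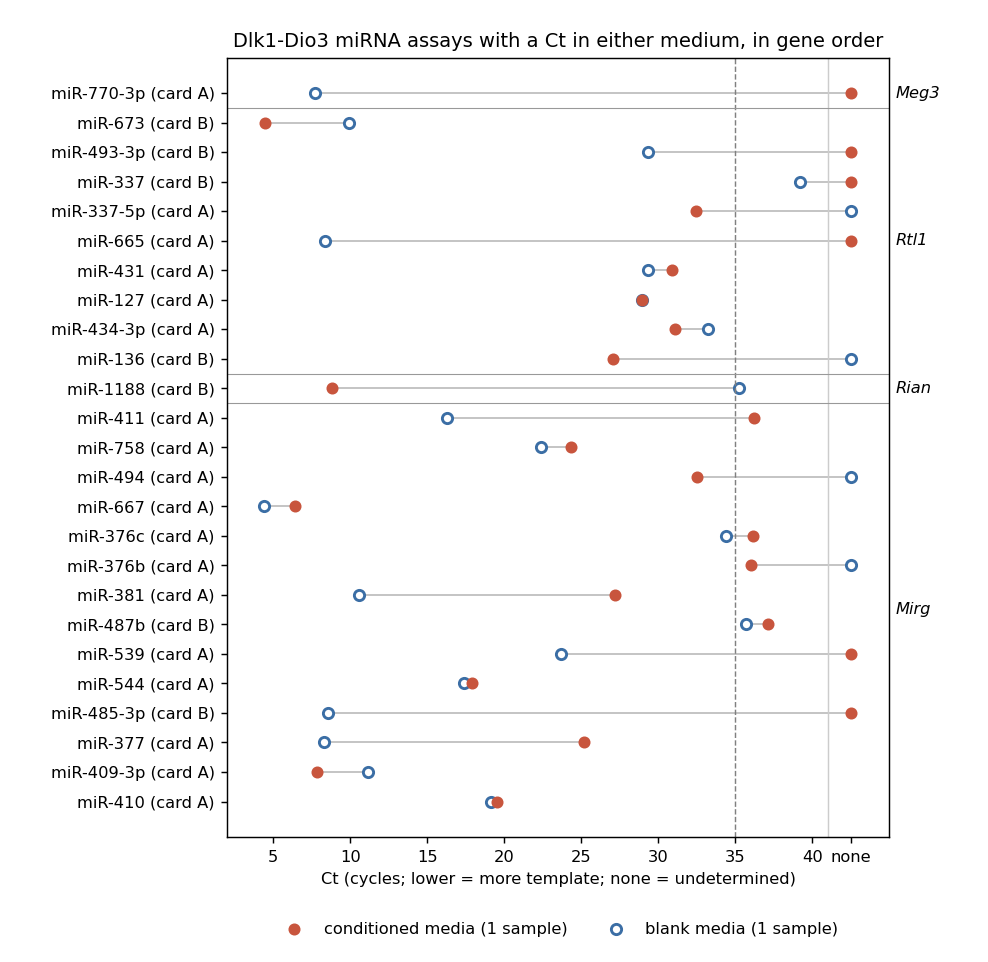
Ct (cycles, lower values standing for more template) of the 25 Dlk1-Dio3 assays with a Ct in either medium, in gene order. Assays are grouped by stretch, named for the transcript they lie in, next to or across from. Filled points are conditioned media and open points blank media, 1 sample each. Wells without a Ct sit at none. The dashed line is the detection limit of 35. The points of miR-127 coincide, and those of miR-377 and miR-381 lie 16.9 and 16.6 cycles apart with blank media first.

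The members detected in blank media alone were miR-770-3p of the Meg3 stretch, miR-665, miR-485-3p, miR-411, miR-539, miR-493-3p and miR-376c. The first 3 crossed at 7.72, 8.38 and 8.51 in blank media and were undetermined in conditioned media. The miR-411 assay crossed at 16.2 in blank media and at 36.2 in conditioned media. The miR-539 assay crossed at 23.7 and the miR-493-3p assay at 29.3, both undetermined in conditioned media. The miR-376c assay crossed at 34.4 without embryos and 36.1 with them, so that it was just inside the limit in one medium and just outside it in the other. Apart from miR-411 and miR-376c, these members gave no Ct at all with embryos.

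Of the 50 members not detected in either medium, 3 had a Ct at or past 35. The miR-337 assay of card B crossed at 39.2 in the blank microdroplet, the miR-376b assay at 36.01 in the conditioned one, and the miR-487b assay of card B at 37.1 with embryos and 35.7 without. The others had no Ct in either medium. In the Meg3 and Rtl1 stretches these were miR-770-5p, miR-673-3p, miR-493, miR-337-3p, miR-540, miR-540-5p, miR-433, miR-433-5p, miR-127-5p, miR-434-5p and the miR-136 assay of card A. In the Rian stretch these were both assays of miR-370. In the Mirg stretch these were miR-379, miR-299, miR-299-5p, miR-380-3p, miR-380-5p, miR-1197, miR-323-3p, the miR-758 and miR-494 assays of card B, miR-329, miR-679, miR-1193, miR-666, miR-666-3p, both assays of miR-543, miR-495, miR-654-3p, miR-654-5p, miR-376a, miR-300, the miR-487b assay of card A, miR-382, miR-134, miR-668, miR-485-5p, miR-154, miR-496, miR-541, miR-409-5p, both assays of miR-412, miR-369-3p and miR-369-5p. Among them are miR-379, the first miRNA of the Mirg stretch, and miR-134, known for its role at neuronal dendrites. An undetermined well was not detectable in this volume of media, which does not show that the miRNA was absent.

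Some members, about as large a share as of all assays, crossed earlier than the most abundant embryonic miRNAs. Among the mouse assays of miR-290 to miR-295 the earliest well was that of miR-292-3p on card A, with a Ct of 19.6 with embryos. Wells earlier than it are called early here. The rat-named miR-293 and miR-294 assays, given further on, crossed earlier and were not used for this limit. Of the 15 members detected in conditioned media, 6 were early, beside 28.9% of the 280 assays detected there. Of the 18 detected in blank media, 11 were early, beside 37.6% of the 218 detected there. In either medium 12 of the 72 members were early, beside 14.9% of all assays, and 5 were early in both, beside 6.8%. The wells of miR-410 lay just inside this limit, at 19.5 and 19.2. The median Ct of detected members was 25.2 with embryos and 16.8 without, and that of all detected assays was 25.5 and 22.8. These medians cover different assays in the 2 media, so that they describe each microdroplet and not a change.

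With early wells taken as undetermined, 9 members were detected in conditioned media, beside 26.5% of all assays, and 7 in blank media, beside 18.1%. Under that reading 4 were detected in both, beside 13.1% of all assays, with a median difference of 0.81 cycles and 0 past 5 cycles either way. Over the 98 assays detected in both the median was 0.04 cycles, and 11 came more than 5 cycles earlier and 1 later. In conditioned media alone there were 5, beside 13.5% of all assays, namely miR-136, miR-337-5p and miR-494 with miR-377 and miR-381, whose blank wells at 8.29 and 10.6 were then set aside. In blank media alone there were 3, beside 5.07% of all assays, namely miR-493-3p, miR-539 and miR-376c. Conditioned media thus held more of the members than blank media under this reading and fewer with early wells counted, in all and alone. The cause of the early wells was not tested, and the height of the fluorescence signal was not analysed here.

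**Figure D3:**
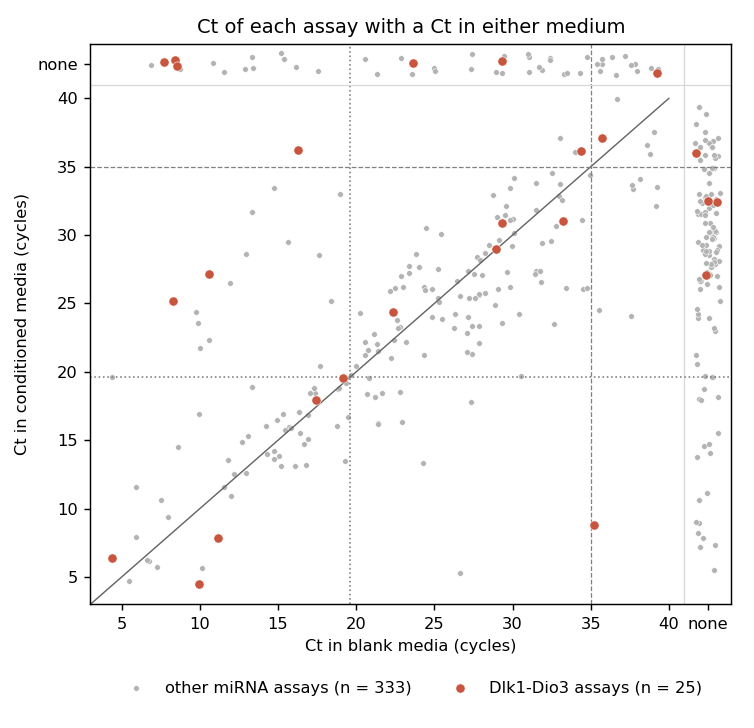
Ct in conditioned media (vertical, cycles) against Ct in blank media (horizontal, cycles) for the 25 Dlk1-Dio3 assays and the other miRNA assays with a Ct in either medium; wells without a Ct are spread along the outer band marked none, dashed lines mark 35, dotted lines the early limit of 19.6, and the diagonal equal values. The members miR-377 and miR-381 lie above the diagonal on the left, and miR-1188 stands alone at 35.2 and 8.83.

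Detected members were spread over the 4 stretches of the locus. Of the 19 assays across from Rtl1, from miR-673 to miR-136, 8 were detected in either medium, beside 42.9% of all assays, 2 of them early and 6 not early (miR-493-3p, miR-337-5p, miR-431, miR-127, miR-434-3p and miR-136). Of the 48 assays of the Mirg stretch, from miR-379 to miR-410, 12 were detected, beside the same 42.9%, 8 of them early and 4 not early (miR-758, miR-494, miR-376c and miR-539). The Mirg stretch thus held 8 of the 12 early assays, the same share as its 48 of the 72 members. The median Ct of detected assays was 29.9 with embryos and 29.1 without for the Rtl1 stretch, and 21.9 and 16.2 for the Mirg stretch. The Meg3 stretch held only the 2 miR-770 assays, of which miR-770-3p was early in blank media, and the Rian stretch held 3, of which miR-1188 was early in conditioned media. In the Rtl1 stretch 6 assays were detected in each medium, and in the Mirg stretch 8 with embryos and 11 without, beside 37.3% and 29.1% of all assays. Early wells set aside, these counts were 5 with embryos and 4 without in the Rtl1 stretch, and 4 and 3 in the Mirg stretch, beside 26.5% and 18.1% of all assays. Whether the stretches differ was not tested, since assays of neighbouring hairpins come from the same microdroplet.

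The early assays had a median GC content of 54.5% over 12 mature sequences, from 36.4% to 72.7%. For the 9 detected, not early assays with a sequence the median was 47.4%, and for the 43 undetected ones 47.6%. At the upper end stood miR-770-3p, whose sequence above holds 72.7% G and C. The range of the early assays overlapped those of both other classes, 36.4% to 59.1% and 23.8% to 68.2%. This is a description of the mature sequences, and primer and probe sequences were not used here.

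Both arms of a hairpin come from 1 precursor but are different miRNAs that often accumulate unequally, so that assays of the 2 arms are set side by side here and not taken as repeats. Of the 22 hairpins with more than 1 member assay, 11 had 1 assay detected in either medium and 0 had more than 1. Among the other mouse assays without #, grouped by number and lower-case letter, 71 hairpins had more than 1 assay, of which 35 had 1 detected and 16 more than 1. Names with a capital letter, such as miR-669E and miR-669G, were grouped by number alone. Some of these 71 groups therefore join different hairpins. Assays of the same name are named for 1 miRNA, but whether they target the same sequence was not checked here. Of the 7 member names with 2 assays, 3 had 1 of them detected (miR-136, miR-494 and miR-758) and 0 had both, whereas of all 26 such names on the cards 9 had 1 detected and 7 had both. Whether these counts differ from those of other miRNAs was not tested.

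The minor-arm and rat-named assays of the same hairpins, which the rule leaves out, add to this for the miR-136 hairpin. Both assays of miR-136#, the 3p arm printed above, were on card B, and they crossed at 26.4 and 29.3 with embryos and gave no Ct without them. Together with the miR-136 assay at 27.1, 3 of the 4 assays of this hairpin were detected in conditioned media and 0 in blank media. These calls, too, rest on Ct alone, without the study's further filter on the fluorescence change. Counting assays of every kind, 33 hairpins of the locus had more than 1 assay, and 1 of them, that of miR-136, had more than 1 assay detected in conditioned media. In blank media it was likewise 1, the miR-409 hairpin, with miR-409-3p at 11.1 and its rat-named form at 29.0. In conditioned media the rat-named form was undetermined, while miR-409-3p crossed at 7.82. The same counts, with assays of every kind, were not made for hairpins outside the locus. Whether those of the locus are unusual was therefore not tested. The rat-named miR-381 assay crossed at 36.4 with embryos only, and the rat-named miR-377 assay had none in either. The early blank wells of miR-381 and miR-377 thus had no counterpart there. Their conditioned wells, at 27.2 and 25.2, had none below 35 either. The rat-named miR-673 assay crossed at 36.6 without embryos only, beside 9.92 and 4.46 for miR-673.

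Other assays of these hairpins had no Ct in either medium, with the exceptions of miR-376a# and miR-376b#. One of the 2 miR-376a# assays crossed at 13.1 in conditioned media and 16.1 in blank media while the other was undetermined, and miR-376b# crossed at 13.3 in blank media alone. The undetermined ones were the minor arms of miR-154, miR-300, miR-376c, miR-411 and miR-431, and the rat-named miR-379#, miR-382#, miR-409-5p, miR-543 and miR-666.

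**Figure D4:**
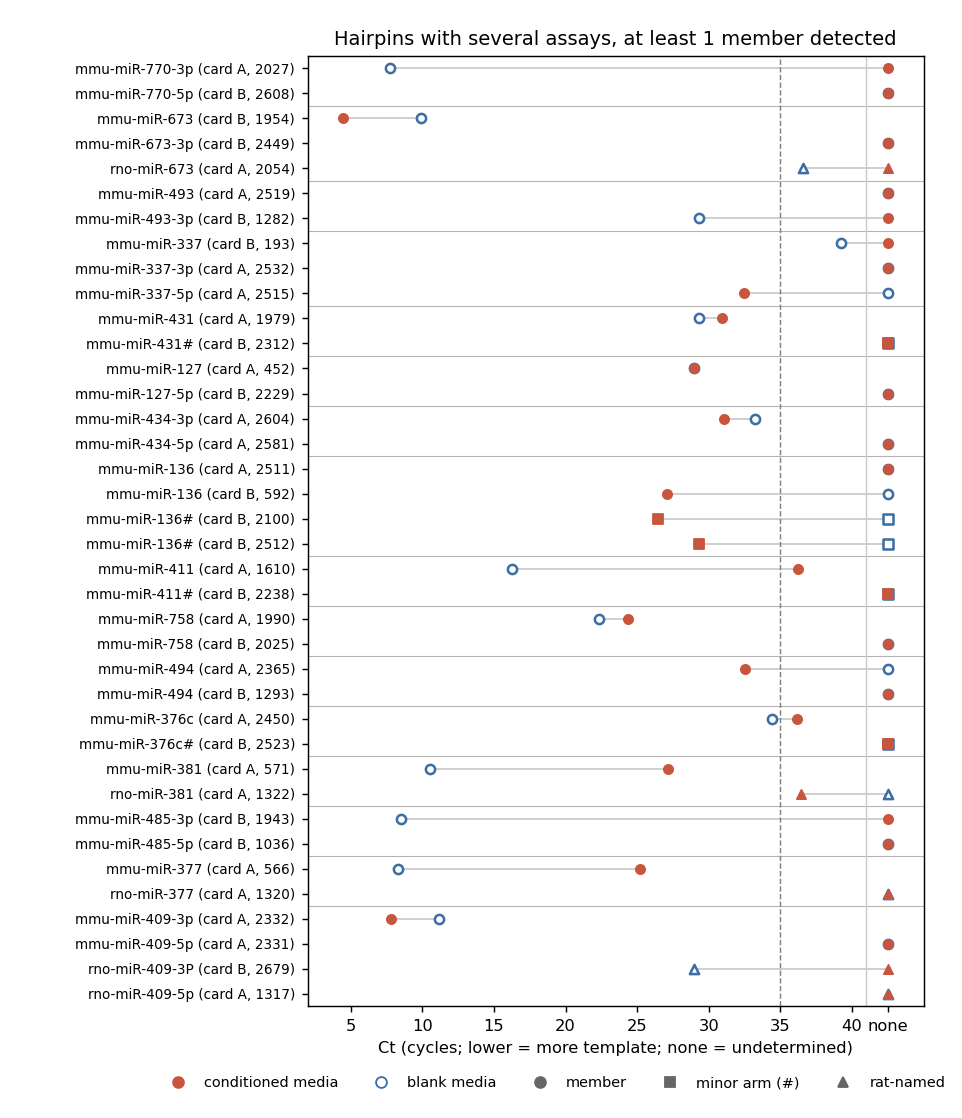
Ct (cycles) of every assay of the 16 Dlk1-Dio3 hairpins that had more than 1 assay and at least 1 member assay detected, grouped by hairpin with the card and assay number in the label; filled marks are conditioned media, open marks blank media, circles members, squares minor-arm assays and triangles rat-named assays, 1 sample of each medium. Only the miR-136 group shows more than 1 filled mark left of the dashed limit of 35.

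Assays known for other cells were read on the same cards. Of 17 assays of miR-290 to miR-295, minor arms included, 12 were detected in conditioned media and 0 in blank media. Left out of the 17 were the rat-named miR-293 and miR-294 assays, on card B. That of miR-293 crossed at 9.01 with embryos only, and that of miR-294 at 6.86 without embryos only. Both are early wells, and their cause was not tested. Of 7 assays of red and white blood cell miRNAs, 5 were detected in both media (miR-142-3p, miR-150, miR-486 and both assays of miR-223). The Ct of miR-150 was 27.4 and 27.2, that of miR-142-3p 28.7 and 28.2, and that of miR-486 27.7 and 23.3. For miR-223 it was 31.4 and 29.5 on card A and 27.4 and 31.7 on card B. The miR-451 and miR-144 assays were undetermined in both media. The part of blood cell RNA in the values of miR-127, miR-431 and miR-434-3p, also detected in both media, was not tested. Of 5 neural assays, miR-219 was detected in conditioned media alone, in an early well at 8.97, and miR-128a in blank media alone at 31.1. The assays of miR-9, miR-137 and miR-129-3p were undetermined. The neural list also named miR-124 and miR-129-5p, but no assay bore exactly these names. The card A assays miR-124a and miR-129 were undetermined in both media. Of 4 muscle assays, miR-206 had a Ct of 22.2 and 20.6, miR-133a crossed at 31.6 with embryos only, and miR-1 and miR-133b were undetermined. The liver miRNA miR-122 was undetermined in both. Of 4 assays of male germ cell miRNAs, miR-34c crossed at 27.9 with embryos only, miR-34b-3p had a Ct of 26.1 and 34.8, and both assays of miR-449b were undetermined. Related assays outside these lists, named after their values were seen, did not all follow them. The miR-142-5p assay, of the hairpin of miR-142-3p, crossed at 32.4 in blank media only. The miR-449 assay crossed at 24.9 and 28.9, the rat-named miR-1 assay at 30.9 with embryos only, and the heart miRNA miR-208 at 21.6 and 21.4, while miR-34b and miR-34b-5p were undetermined. The control RNAs snoRNA135 and snoRNA202 were detected on both cards and U87 on card A in conditioned media, from 28.5 to 33.0, and all were undetermined in blank media. The control RNA Y1 crossed at 15.5 on card B with embryos only, an early well, and was undetermined on card A in both media.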

How the data were processed

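Per the labels and the study's methods, 6 μL of conditioned and of blank media were lysed with a Cells-to-Ct kit, reverse transcribed, pre-amplified for 12 cycles and amplified, without dilution, on cards A and B of the array. The Ct values deposited by the authors are their software's export, not normalized, on a log2 scale that is inverted, with undetermined wells marked as such. The sources used here do not give the threshold and baseline settings. Pre-amplification moves every Ct earlier, and its error cannot be separated from that of the wells. The fluorescence change ΔRn, on which the study also filtered, was not analysed here, so that the counts rest on Ct alone. They hold wells of both media which that filter removes, and the shares detected are therefore higher than with it. A table of the authors' fold changes, linear ratios of conditioned to blank media, was not used.

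Each assay was counted once, with a detection limit of Ct 35 and difference limits of 5 and -5 cycles, without the 18 control wells. Every member is named, with its Ct where any was obtained. No depth in reads exists for these data, and precision was described by 4 U6 wells per card and medium. The order of miRNA genes came from the RefSeq annotation and mature sequences from RefSeq, both of GRCm38.p6. Alternatives were a Ct limit of 32, of 38 or none, early wells taken as undetermined, 1 value per hairpin, each card alone, an undetermined blank well required, a difference limit of 3 cycles, and differences relative to U6 or to the card median. The U6 spread was also taken without 1 outlying blank well. The members, lists and alternatives were chosen with earlier results of these data known. The counting was tested on simulated data for 150 assays, where 8 of 8 checks passed. Python 3.11.15, pandas 2.3.3, numpy 2.4.6 and matplotlib 3.10.9 were used.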

Additional observations from a re-analysis of the deposited data

Results flagged for a closer look

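Of 23 assays of the locus outside the mouse assays counted as members, 3 crossed before cycle 35 with embryos and gave no Ct without them, beside 13.9% of all 750 assays detected in conditioned media only, and no comparison of member counts used them. Another 2 (miR-376b# and the rat-named miR-409-3p) were detected in blank media only and 2 in both. The 2 assays of miR-136#, both on card B, had a Ct of 26.4 and 29.3. The assay of miR-882, a miRNA of the Mirg stretch, was also on card B and had a Ct of 7.36, an early well. Each value is 1 well of 1 microdroplet, called by Ct alone.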

How the results depend on the processing

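The 8 counts and medians of the members were recomputed under the Ct limits, with early wells undetermined, with 1 value per hairpin and on each card alone, and those results that the other settings bear on under those. Counting 1 value per hairpin could change nothing, since no hairpin had more than 1 member assay detected. Under the others, 36 of 60 recomputed values stayed close to the reported one, that is within a factor of 1.5 for counts or, for the median, within the largest U6 SD of 3.22 cycles. With the 0.83 cycles left without the outlying blank U6 well it was 34 of 60, as the median of 1.41 cycles at a Ct limit of 38 or with any determined Ct then counts as moved. A Ct limit of 32 moved none of the 8. With a Ct limit of 38 or any determined Ct, 2 members came more than 5 cycles earlier in conditioned media. With early wells taken as undetermined, 9 members were detected in conditioned media, 7 in blank media, 4 in both and 3 in blank media only, with 0 past 5 cycles earlier and 0 later, and the order of the 2 media turned, in all and for members of 1 medium alone. On card A alone, 2 were detected in conditioned media only, beside 14.7% of all card A assays. None of the card A members came more than 5 cycles earlier, beside 12 of the 94 card A assays detected in both media. On card B alone, 3 were detected in conditioned media, 3 in blank media, 1 in both, 2 in conditioned media only and 2 in blank media only, 0 came more than 5 cycles later, and the median difference was that of the 1 shared member, -5.47. With a difference limit of 3 cycles, 2 came earlier. Relative to the U6 mean, 0 came earlier and 5 later, with a median of 4.61 cycles, and relative to the U6 median 0 earlier and 8 later, with a median of 5.63 cycles. Centring on the card median left both counts past 5 cycles as they were and gave a median of 0.64 cycles. Leaving out the outlying blank U6 well of card A, a choice made after seeing the data, lowered the members within the U6 range of their card from 8 to 3 and those within the U6 SD from 7 to 3. No paired analysis was possible because each medium had 1 sample. The limits are 1 microdroplet per medium, 1 well per assay, undiluted pre-amplification, and a signal height that was not analysed here. The early wells move most counts, and their cause was not tested.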

Other observations

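Another 3 assays of the locus had numbers outside the rule. The miR-432 assay, of the Rtl1 stretch, crossed at 16.04 with embryos and 14.2 without, early in both. The assays of miR-1906 and miR-453 were undetermined in both media.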
